A study of Mus musculus with 4 samples.

Results

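The genes described here are 10 factors of the integrated stress response, *Atf4*, *Atf3*, *Ddit3*, *Cebpb*, *Chac1*, *Trib3*, *Asns*, *Ppp1r15a*, *Sesn2* and *Ddit4*, in cultures of mouse embryonic neural stem/progenitor cells, called NSPCs, treated with the PARP inhibitor PJ34. They were found by the gene name of the probe, as a set named with earlier results of these data known, and they are 10 of 20226 genes tested and 11 of 55681 probes on the array. *Atf4* has 2 probes and each other gene has 1. Wild-type NSPCs and NSPCs homozygous for a disrupted *Trp53* gene (Trp53-/-) were compared, both labelled as strain Slc:ICR and as embryonic day 13.5. In each genotype, RNA of cells exposed to 20 μM PJ34 carried Cy5 and RNA of cells without PJ34 carried Cy3, and 2 such pairs per genotype were each read on 1 array. The *Trp53*-deficient mice are germline knockouts, the cultures were expanded with EGF and FGF, and the sources used here do not give the length of the PJ34 treatment for the arrays or how many embryos went into a culture. The dyes were not swapped, so dye bias and the effect of PJ34 cannot be told apart within a genotype.

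The integrated stress response is the program by which cells answer amino acid shortage, misfolded protein in the endoplasmic reticulum, heme deficiency or double-stranded RNA. The kinases PERK, GCN2, PKR and HRI phosphorylate the translation factor eIF2α, which lowers protein synthesis in general while it favours translation of the mRNA of ATF4, a transcription factor. ATF4 then switches on genes for amino acid supply, further transcription factors such as CHOP and ATF3, and genes that end the response. *Sesn2* and *Ddit4* are known as targets of p53 as well as of ATF4, and links of the other genes of the set to p53 were not reviewed here.

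The PJ34 channel had 26081 to 27156 probes well above background and the control channel 21505 to 24540, and no spot was saturated. The targeted gene *Trp53* had normalized log2 intensities of 8.29 and 8.50 in the wild-type controls and 7.56 and 7.82 in the Trp53-/- controls, a difference of -0.71 with *q* = 0.0546 (limma), and it was well above background on all 4 arrays. Whether its probe lies in the disrupted part is not given in the sources used here. Of 8 NSPC markers, 8 were above background in every control. The defining markers of erythroid cells, 3 of 3, and of mesenchymal cells, 3 of 4, were not measured above the filter, and for microglia 1 of 4 was. The log2 ratio of the Y-linked gene *Eif2s3y* was 0.34 and 0.84 in wild-type but -0.20 and 4.22 in Trp53-/- replicates 1 and 2. Its control level was 8.96 and 8.47 in wild-type, but 6.01 and 6.25 in Trp53-/-, where it was not well above background. The PJ34 and control RNA of Trp53-/- replicate 2 therefore differed in a sex-linked transcript, and values without that array are given below. In the untreated comparison sex of the embryos and genotype cannot be told apart.

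The promoters of the set are shown for the letters of elements linked to stress responses. The motif TGATGNAA, the letters of the C/EBP-ATF response element through which ATF4 acts, was searched on both strands of the 250 bases before the start of the gene in RefSeq (GRCm38.p6), in which all 10 genes were found. It was present in 3 of 10 promoters of the set and in 3.45% of 32851 promoters. The genes were named as factors of the ATF4 response, so a larger share could follow from that choice, which was not tested. The cyclic AMP response element, TGACGTCA, was present in 1 of 10 and in 1.55%. The endoplasmic reticulum stress element, CCAAT and CCACG separated by 9 bases, was present in 0 of 10 and in 0.113%. The 4 promoters with a match are printed 5′ to 3′ in the direction of the gene, with the matched letters in capitals.
Chac1, chr2:119350992-119351241, plus strand: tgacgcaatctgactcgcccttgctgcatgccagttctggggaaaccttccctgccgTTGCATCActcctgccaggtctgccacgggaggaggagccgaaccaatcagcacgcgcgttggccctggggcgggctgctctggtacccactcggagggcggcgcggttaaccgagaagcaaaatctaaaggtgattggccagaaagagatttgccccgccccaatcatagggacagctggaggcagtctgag
Asns, chr6:7693210-7693459, minus strand: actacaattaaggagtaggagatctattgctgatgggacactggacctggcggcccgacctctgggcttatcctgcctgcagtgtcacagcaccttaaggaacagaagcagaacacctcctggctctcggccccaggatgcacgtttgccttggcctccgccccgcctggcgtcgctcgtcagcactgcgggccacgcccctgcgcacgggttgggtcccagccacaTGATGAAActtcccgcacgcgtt
Atf3, chr1:191183334-191183583, minus strand: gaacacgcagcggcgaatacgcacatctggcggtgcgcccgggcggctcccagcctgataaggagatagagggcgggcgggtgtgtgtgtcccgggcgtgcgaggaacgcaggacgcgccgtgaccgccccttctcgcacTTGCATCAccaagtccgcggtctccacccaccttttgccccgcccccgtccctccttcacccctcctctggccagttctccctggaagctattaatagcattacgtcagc
Ppp1r15a, chr7:45526269-45526518, minus strand: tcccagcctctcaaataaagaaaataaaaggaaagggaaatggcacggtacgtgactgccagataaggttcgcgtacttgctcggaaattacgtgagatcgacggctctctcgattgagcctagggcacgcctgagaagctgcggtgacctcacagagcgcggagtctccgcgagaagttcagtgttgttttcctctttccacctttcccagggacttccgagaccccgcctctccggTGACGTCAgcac
Between the match and the start lay 185 bases in *Chac1*, 102 in *Atf3* and 15 in *Asns*, and the matches in *Chac1* and *Atf3* were on the opposite strand. That of *Ppp1r15a* was the cyclic AMP response element, with 4 bases between it and the start. No such letters were in the windows of the other 6 genes. Whether the matches go with the PJ34 response described below was not tested, and only 250 bases per gene were searched. *Chac1*, *Asns* and *Ppp1r15a* fell in Trp53-/- and *Atf3* in neither genotype, while *Trib3*, *Ddit4*, *Ddit3* and *Atf4* fell there without a match.

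In wild-type NSPCs PJ34 raised the mRNA of *Sesn2* and *Ddit4*, and by smaller amounts *Atf3* and *Cebpb*, while *Asns* and *Atf4* fell. In Trp53-/- NSPCs *Trib3*, *Chac1*, *Asns*, *Ddit4*, *Atf4*, *Ddit3* and *Ppp1r15a* fell and *Cebpb* rose. Values are log2 ratios of PJ34 over control after background correction and loess within each array, and a gene is said to have risen or fallen when *p* and Storey's *q* from limma, fitted over all genes, were below 0.05. By this rule 4 of 10 genes were higher and 2 lower in wild-type, against 13.6% and 11.2% of all genes. In Trp53-/- 1 was higher and 7 lower, against 12.8% and 10.5% of all genes. Fewer cells that express a gene and less RNA per cell cannot be told apart in these bulk samples. With the further limit of 2-fold, 1 gene was higher in wild-type (0.287% of all genes) and 0 were lower (0.213%). In Trp53-/- 0 were then higher (0.089%) and 0 lower (0.272%). Without that limit limma's unadjusted *p* in Trp53-/- was below 0.05 for 1 higher and 7 lower genes, and for 6254 of all 20226 genes. The median ratio of the set was 0.13 in wild-type (all genes 0.03) and -0.49 in Trp53-/- (all genes 0.03). When arrays were centred on the median of their spots and not by loess, the median of all genes tested itself moved to 0.46 and 0.63. Then 6 genes were higher and 0 lower in wild-type, where 59.1% and 0.415% of all genes were, and 4 were higher and 0 lower in Trp53-/-, where 67.6% and 0.44% were. Of the 10 genes, 6 in wild-type and 8 in Trp53-/- then lay below the median of all genes. Without Trp53-/- replicate 2, 0 genes were higher and 4 lower in Trp53-/- (3.11% and 3.41% of all genes), and at an unadjusted *p* below 0.05 limma gave 0 and 6.

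**Figure D1:**
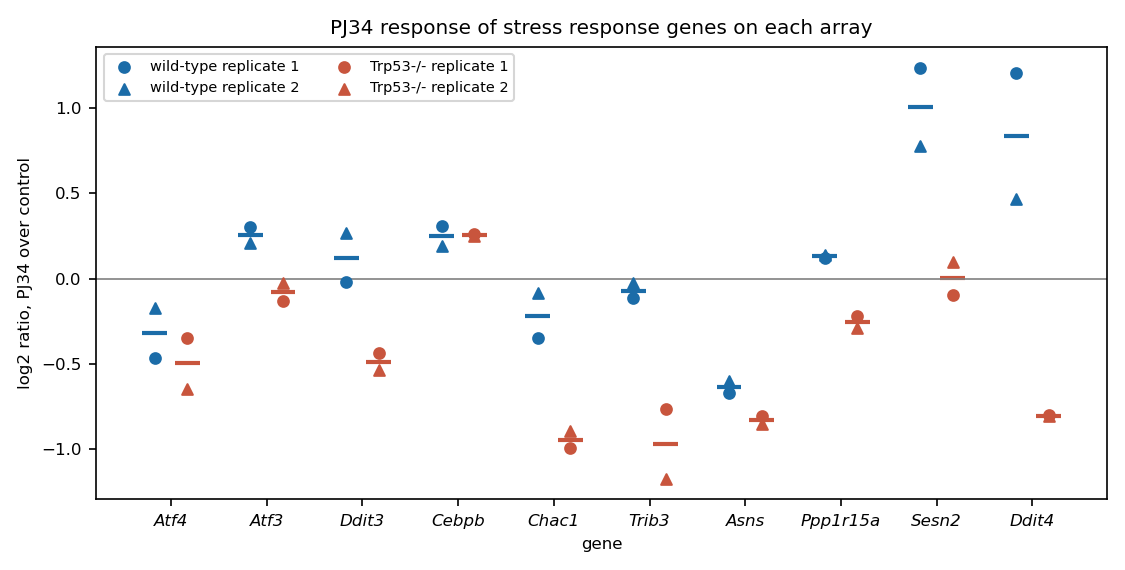
Log2 ratio of PJ34 over control for the 10 genes on each of the 4 arrays. Circles are replicate 1, triangles replicate 2, bars the mean of the 2 arrays, blue wild-type and red Trp53-/-. *Sesn2* and *Ddit4* were the highest in wild-type, with means of 1.01 and 0.83, while *Trib3* and *Chac1* were the lowest in Trp53-/-, with -0.97 and -0.94.

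*Atf4* encodes the transcription factor at the centre of the response, which is controlled mainly through translation of its mRNA. Its brighter probe (chromosome 15, 80087902 to 80087961 of mm9) had ratios of -0.47 and -0.17 in wild-type and of -0.35 and -0.64 in Trp53-/-. All 4 arrays were below 0 and the genotypes overlapped. The mean fell by 0.32 in wild-type (SD 0.21, n = 2 arrays, *q* = 0.0354) and by 0.50 in Trp53-/- (SD 0.21, *q* = 0.0068). The second probe (80086639 to 80086698) gave -0.36 and -0.15 in wild-type and -0.37 and -0.35 in Trp53-/-. With median centring the direction of *Atf4* turned, to 0.43 in wild-type and 0.58 in Trp53-/-, both below the median of all genes. The wild-type decrease did not pass with Benjamini-Hochberg adjustment (adjusted *p* = 0.0694), an offset of 16 (*q* = 0.0640) or the scanner software's log ratios (*q* = 0.155). It also did not pass without wild-type replicate 1, at -0.17. The Trp53-/- decrease did not pass without Trp53-/- replicate 2, at -0.35, or with the scanner software's log ratios (*q* = 0.0781).

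*Ddit3* encodes CHOP, a transcription factor that promotes cell death under lasting stress. Its ratios were -0.02 and 0.27 in wild-type and -0.44 and -0.54 in Trp53-/- (chromosome 10, 126732518 to 126732821, a probe that spans an intron). The 2 genotypes did not overlap. The mean of 0.12 in wild-type had *q* = 0.221, and in Trp53-/- *Ddit3* fell by 0.49 (SD 0.07, n = 2 arrays, *q* = 0.0050), with 0.07 by median centring. This call was lost without Trp53-/- replicate 2, at -0.44 (*q* = 0.0782), and on the ratios computed by the scanner (*q* = 0.0570). *Atf3*, a transcription factor induced by many stresses, had 0.30 and 0.21 in wild-type and -0.13 and -0.03 in Trp53-/- (chromosome 1, 192994547 to 192994606). Its control signal was not well above background on either wild-type array, so its rise is only bounded, at least 1.14-fold, with *q* = 0.0400. This call was lost when either wild-type array was left out (*q* between 0.115 and 0.251). *Cebpb*, a C/EBP transcription factor that pairs with ATF4, was the member with the most even response, 0.31 and 0.19 in wild-type and 0.26 and 0.25 in Trp53-/- (chromosome 2, 167515828 to 167515887). It rose by 0.25 in each genotype, with *q* = 0.0419 and *q* = 0.0401, and neither call held with Benjamini-Hochberg adjustment.

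The genes that restrain the response differed in the size of their decrease. *Trib3* encodes a pseudokinase that inhibits ATF4 and CHOP activity. It had ratios of -0.11 and -0.03 in wild-type and of -0.76 and -1.17 in Trp53-/- (chromosome 2, 152163161 to 152163220). Both Trp53-/- arrays lay far below the wild-type arrays, and the mean fell by 0.97, to 1.95-fold below control (SD 0.29, n = 2 arrays, *q* = 0.000381). In wild-type the mean was -0.07 (*q* = 0.359). *Ppp1r15a* encodes GADD34, the regulatory subunit that returns the phosphatase PP1 to eIF2α and so ends the block of translation. Its ratios were 0.12 and 0.14 in wild-type and -0.22 and -0.29 in Trp53-/- (chromosome 7, 52778320 to 52778379). The groups did not overlap, and the decrease in Trp53-/-, by 0.26, was just past the threshold (*q* = 0.0384). It did not pass with Benjamini-Hochberg adjustment (adjusted *p* = 0.0785). Nor did it pass with an offset of 16, no filter, a replicate block or the scanner software's log ratios (*q* between 0.0553 and 0.0771). Without Trp53-/- replicate 2, at -0.22, or replicate 1, at -0.29, it did not pass either. With median centring *Trib3* stayed below 0 in Trp53-/-, at -0.36, whereas *Ppp1r15a* turned to 0.58.

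*Chac1* and *Asns* are targets of ATF4 with metabolic functions. *Chac1*, which encodes an enzyme that degrades glutathione, had ratios of -0.35 and -0.08 in wild-type and of -0.99 and -0.89 in Trp53-/- (chromosome 2, 119179990 to 119180049). It fell by 0.94 in Trp53-/-, to 1.92-fold below control (SD 0.07, n = 2 arrays, *q* = 0.000265), and stayed below 0 with median centring, at -0.24. In wild-type its mean was -0.22 with *q* = 0.0800. *Asns* encodes asparagine synthetase, which makes asparagine from aspartate and glutamine. Its ratios were -0.67 and -0.60 in wild-type and -0.80 and -0.85 in Trp53-/- (chromosome 6, 7625171 to 7625228). It fell in wild-type by 0.64 (SD 0.05, *q* = 0.000585) and in Trp53-/- by 0.83 (SD 0.04, *q* = 0.000300), and unlike *Atf4* it also passed in wild-type with Benjamini-Hochberg adjustment. With median centring *Asns* was at 0.05 and 0.15, far below the medians of all genes.

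*Sesn2* and *Ddit4* encode Sestrin 2 and REDD1, which restrain the growth kinase complex mTORC1. *Sesn2* had ratios of 1.24 and 0.78 in wild-type and of -0.09 and 0.10 in Trp53-/- (chromosome 4, 132048858 to 132048917). It doubled in wild-type, with a mean of 1.01 or 2.01-fold (SD 0.32, n = 2 arrays, *q* = 0.000276), while its mean in Trp53-/- was 0.0018 (*q* = 0.487, 95% interval -0.26 to 0.26). Without wild-type replicate 1 its ratio was 0.78, which is under 2-fold. *Ddit4* had 1.20 and 0.47 in wild-type and -0.80 and -0.81 in Trp53-/- (chromosome 10, 59412486 to 59412545), so that it went in opposite directions in the 2 genotypes. It rose by 0.83 in wild-type (SD 0.52, *q* = 0.0018) and fell by 0.80 in Trp53-/- (SD 0.0046, *q* = 0.0029). With median centring the Trp53-/- value of *Ddit4* turned to 0.17, below the median of all genes.

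The response to PJ34 was then compared between the genotypes directly, as wild-type minus Trp53-/-. *Ddit4*, *Sesn2*, *Trib3* and *Chac1* responded differently, each with the higher ratio in wild-type, which is 4 of 10 genes against 1.27% of all genes, and 0 had the lower ratio there, against 0.47%, also at an unadjusted *p* below 0.05 in limma. *Ddit4* differed most, by 1.64 (SE 0.20, *q* = 0.0041), followed by *Sesn2* with 1.01 (SE 0.17, *q* = 0.0146), *Trib3* with 0.90 (SE 0.15, *q* = 0.0174) and *Chac1* with 0.73 (SE 0.14, *q* = 0.0265). The first 2 also exceeded 2-fold, which 0.435% of all genes did in this direction and 0.0346% in the other. *Ddit3* differed by 0.61 and missed the threshold with *q* = 0.0532, and *Ppp1r15a* and *Atf3* differed by 0.39 and 0.33 with *q* = 0.133 and 0.187. For *Atf4*, *Asns* and *Cebpb* the differences were 0.18, 0.19 and -0.0058, with 95% intervals of -0.17 to 0.52, -0.09 to 0.47 and -0.29 to 0.27. The ratios of both wild-type arrays were above those of both Trp53-/- arrays for 8 of the 10 genes, and for 21.3% of all genes. With median centring *Ddit4* alone passed, at 1.37 (*q* = 0.0014), and the median of all genes was -0.14. With the scanner software's own log ratios or an offset of 16 none of the 4 passed in limma (*q* between 0.0718 and 0.259). Of all 20226 genes 0 and 39 then passed, against 352 in the analysis described here. An unadjusted *p* below 0.05 in limma was found for 7 of the 10 genes in each, as in the analysis described here. Of all genes 2341 and 2679 had such a *p*, against 2911. Without Trp53-/- replicate 2, *Ddit4* and *Sesn2* passed, while *Trib3* and *Chac1* had *q* = 0.0690 and 0.0599.

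**Figure D2:**
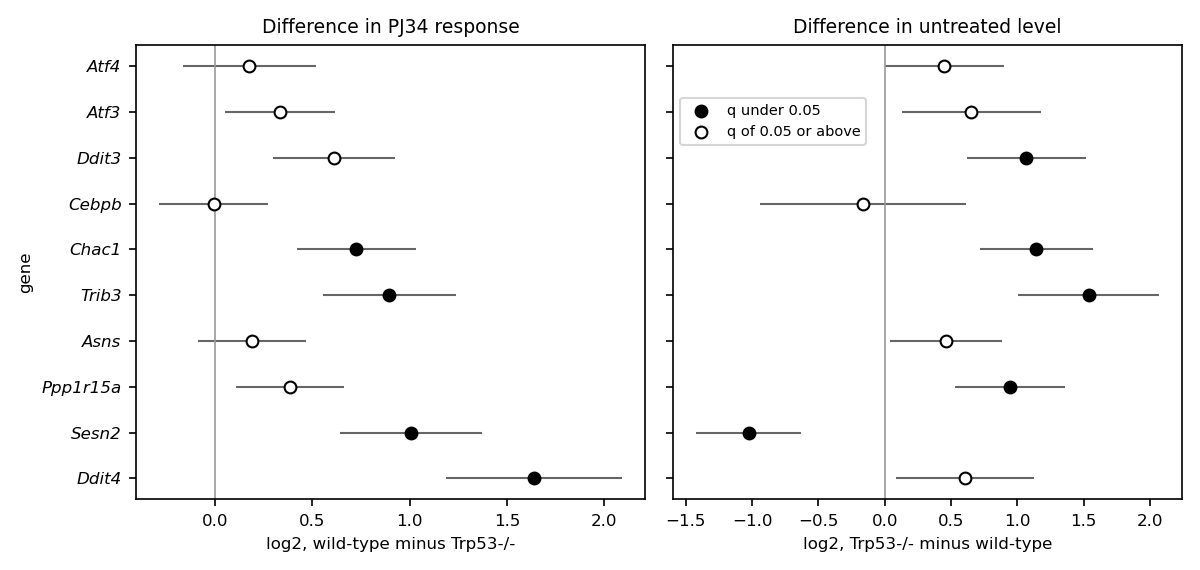
Left, difference in the log2 ratio of PJ34 over control, wild-type minus Trp53-/-. Right, difference in the untreated log2 level, Trp53-/- minus wild-type. Points are limma estimates from 2 arrays per genotype, lines their 95% intervals, and filled points have *q* below 0.05. *Ddit4*, at 1.64, lies farthest right on the left, and on the right *Trib3* is the highest at 1.54 and *Sesn2* the lowest at -1.02.

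Untreated NSPCs of the 2 genotypes differed in the same set before any PJ34 was added. *Trib3*, *Chac1*, *Ddit3* and *Ppp1r15a* were higher in untreated Trp53-/- NSPCs and *Sesn2* was lower, which is 4 of 10 genes higher, against 3.85% of all genes, and 1 lower, against 3.72%. Levels are normalized log2 intensities of the Cy3 channel, so the dye is the same in all 4 samples. *Trib3* had control levels of 6.96 and 7.37 in wild-type and of 8.54 and 8.87 in Trp53-/-, a difference of 1.54 or 2.90-fold (SE 0.22, *q* = 0.0189). *Chac1* had 8.10 and 8.36 against 9.36 and 9.39, a difference of 1.14 (SE 0.17, *q* = 0.0218). The lowest Trp53-/- level was above the highest wild-type level for both genes. *Ddit3* had 6.99 and 7.27 against 8.11 and 8.29, a difference of 1.07 (SE 0.18, *q* = 0.0249). *Ppp1r15a* had 9.59 and 9.79 against 10.67 and 10.60, a difference of 0.94 (SE 0.17, *q* = 0.0273). *Sesn2* went the other way, with 11.21 and 11.09 in wild-type against 10.16 and 10.09 in Trp53-/-, a difference of -1.02 (SE 0.16, *q* = 0.0227). Past 2-fold, 3 genes were higher (1.88% of all genes) and 1 lower (1.93%).

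The other 5 genes did not pass in the untreated comparison. *Ddit4* had control levels of 12.63 and 13.07 in wild-type and of 13.33 and 13.58 in Trp53-/- (difference 0.60, *q* = 0.0948). *Atf4* had 14.60 and 14.31 against 14.84 and 14.98 (difference 0.45, *q* = 0.119), and *Asns* 12.90 and 13.14 against 13.47 and 13.51 (difference 0.47, *q* = 0.103). In these 3 genes too the genotypes did not overlap. *Atf3*, with 6.22 and 6.53 against 7.24 and 6.83, was at least 1.50-fold higher in Trp53-/- (*q* = 0.0827). *Cebpb* varied most between replicates, with 9.61 and 8.65 against 8.90 and 9.03 (difference -0.16, *q* = 0.449, 95% interval -0.94 to 0.61). Across the set the wild-type controls were below the Trp53-/- controls for 8 of 10 genes, and for 27.4% of all genes. When either Trp53-/- array was left out, no gene on the array passed in limma, whereas at an unadjusted *p* below 0.05 there were 1486 genes without replicate 2, with 5 members higher and 1 lower, and 2167 genes without replicate 1, with 4 higher and 1 lower.

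The untreated levels and the PJ34 ratios share the same control samples, so they are given side by side only. With PJ34, *Trib3* was at 6.85 and 7.34 in wild-type and at 7.78 and 7.70 in Trp53-/-, and *Chac1* at 7.75 and 8.27 against 8.36 and 8.50. *Ddit3* was at 6.97 and 7.54 against 7.67 and 7.75. For these genes the 2 genotypes lay closer together with PJ34 than without it, and the Trp53-/- levels with PJ34 remained above the wild-type levels. *Sesn2* moved apart, to 12.44 and 11.87 in wild-type against 10.07 and 10.19 in Trp53-/-, and *Ddit4* changed order, with 13.83 and 13.53 against 12.53 and 12.77. With PJ34, wild-type was below Trp53-/- without overlap for 7 of the 10 genes (28.0% of all genes) and above it for 2 (27.9%). Markers of other cell types also moved. In the untreated comparison 3.85% of all genes were higher in Trp53-/- and 3.72% lower. Of 4 astrocyte markers *S100b* was higher there by 1.90 and *Aqp4* by 0.66, while *Aldh1l1* did not pass (difference -0.56, *q* = 0.278). *Gfap* had control levels of 6.44 and 7.23 in wild-type and of 9.22 and 9.22 in Trp53-/-. It was above background in 1 of 2 wild-type controls and kept through Trp53-/-, so no test of *Gfap* between the genotypes is given. The summed control level of the 4 markers was 10.3 and 11.5 in wild-type and 11.4 and 11.4 in Trp53-/-. Of 4 markers of the oligodendrocyte lineage 1 was higher, *Mbp* by 1.98, and 1 lower, *Pdgfra*, with a difference of -0.71, and their summed control level was 13.44 and 12.99 in wild-type and 13.31 and 13.24 in Trp53-/-. Of 6 neuron markers *Rbfox3* was higher by 1.24, and of 2 measured endothelial markers *Kdr* was lower, with a difference of -1.34. With PJ34, 2 of the 4 oligodendrocyte lineage markers fell in wild-type and 3 in Trp53-/-, *Olig2* by 0.31 and 0.53, *Pdgfra* by 0.43 and 0.32, and *Mbp* in Trp53-/- by 0.36, as did *S100b* there by 0.62. With median centring these markers were above 0, *Olig2* at 0.37 and 0.43, and below the median of all genes. After loess 2 of the 4 astrocyte markers rose in Trp53-/-, *Aldh1l1* by 0.37 and *Gfap* by 0.81 (ratios -0.0002 and 1.62). Of the 6 neuron markers 2 rose in wild-type, *Map2* by 0.34 and *Neurod1* by 0.38 (control not well above background). *Neurod2* fell in Trp53-/- by 0.30. Of the 8 NSPC markers 3 rose and 1 fell in wild-type, against 13.6% and 11.2% of all genes. In Trp53-/- 2 rose and 2 fell, against 12.8% and 10.5%. *Fabp7* rose by 0.47 and 0.58, *Prom1* by 0.58 and 0.73, and *Msi1* in wild-type by 0.49. *Vim* fell in Trp53-/- by 0.31. *Hes5*, a target of Notch signalling, fell by 1.76 and 0.65 (-1.11 and 0.24 with median centring). Without PJ34 *Msi1* was lower in Trp53-/-, with a difference of -0.96 (*q* = 0.0287). The part of these markers in the levels of the stress response genes was not tested.

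**Figure D3:**
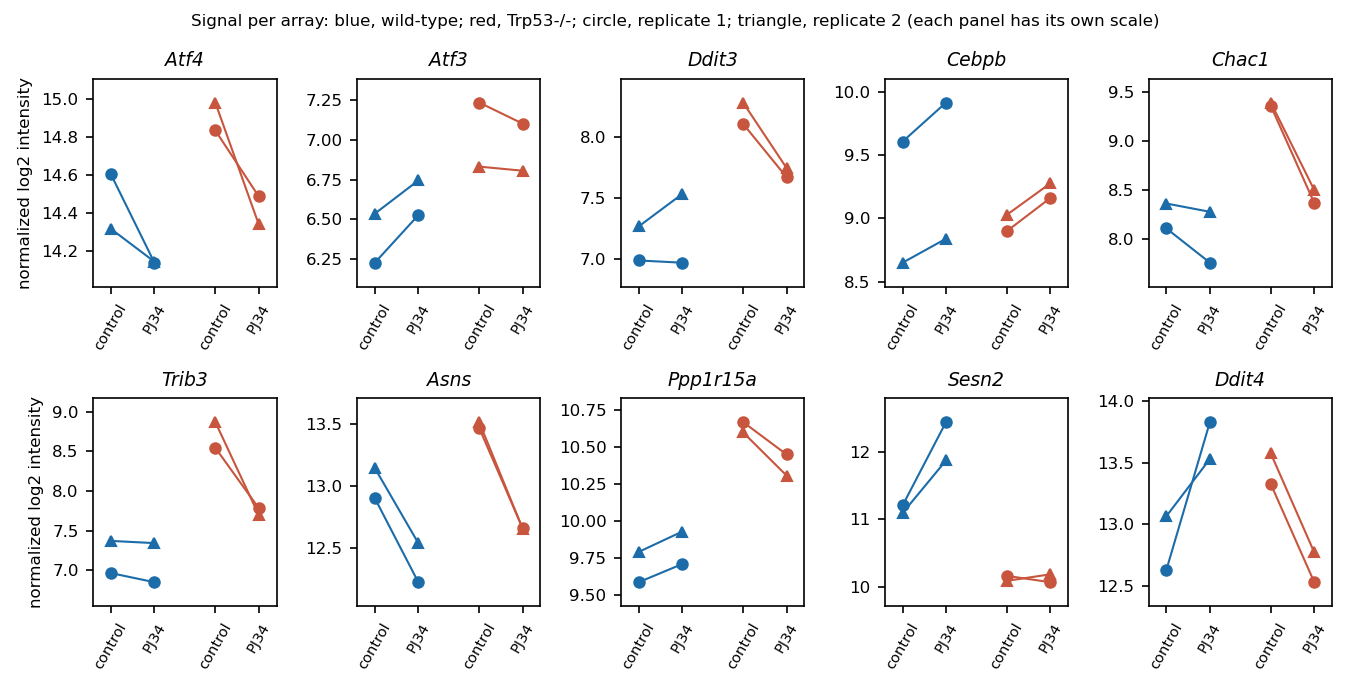
Normalized log2 intensity of the 10 genes in control and PJ34 channels, with lines joining the 2 channels of an array. Blue is wild-type, red Trp53-/-, circles replicate 1 and triangles replicate 2, and each panel has its own scale. The control levels of *Trib3*, *Chac1*, *Ddit3* and *Ppp1r15a* are higher in Trp53-/-, and *Ddit4* rises with PJ34 in wild-type but falls in Trp53-/-.

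Among other known targets of ATF4 more fell than rose in both genotypes after loess. With median centring, by which most of the genes tested rose, more rose than fell. Of 44 listed, 43 were measured, with 3 higher and 15 lower in wild-type (median -0.14) and 1 higher and 16 lower in Trp53-/- (median -0.19), against the shares of all genes of 13.6% and 11.2%, and of 12.8% and 10.5%. With median centring 19 were higher and 1 lower in wild-type and 31 higher and 1 lower in Trp53-/-, where 59.1% and 67.6% of all genes were higher, and 27 and 24 of the 43 were below the median of all genes. Without Trp53-/- replicate 2, 1 was higher and 4 lower in Trp53-/-. *Slc1a5*, a glutamine transporter, had ratios of -0.92 and -0.98 in wild-type but -0.09 and 0.23 in Trp53-/-, and *Slc1a4*, a transporter of neutral amino acids, rose in both, by 0.69 and 0.59. With median centring *Slc1a5* was still below 0 in wild-type, at -0.44, and *Nupr1* in Trp53-/-, at -0.86. *Mthfd2*, of mitochondrial folate metabolism, and *Gars*, the glycyl-tRNA synthetase, fell in wild-type by 0.49 and 0.42, but were at 0.08 and 0.34 with median centring. In Trp53-/- the stress-induced chromatin protein gene *Nupr1* fell most, with -1.36 and -1.34 (*q* = 5.06e-05), followed by *Eif4ebp1*, the translation repressor 4E-BP1, by 0.86, and *Pycr1*, of proline synthesis, by 0.62, or with median centring 0.04 and -0.14. *Gdf15*, a secreted stress factor that is also a known p53 target, had 2.12 and 1.16 in wild-type, whereas in Trp53-/- neither of its channels was well above background.

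Of these targets, the response of *Nupr1* differed by 1.13 (*q* = 0.0021), that of *Vldlr*, a lipoprotein receptor, by 0.90 (*q* = 0.0306) and that of *Slc1a5* by -1.02 (*q* = 0.0069). With median centring *Slc1a5* still passed (*q* = 0.0202), and *Nupr1* and *Vldlr* had *q* = 0.202 and 0.368. *Vldlr* had ratios of 0.79 and 0.26 in wild-type and of -0.27 and -0.50 in Trp53-/-. *Gdf15* was kept for the fit through its wild-type signal alone, so no test of it between the genotypes is given. Without PJ34, 5 of the 43 were higher in Trp53-/- (3.85% of all genes), and *Slc1a5* was lower. *Slc6a9*, a glycine transporter, was higher by 1.56, *Nupr1* by 1.45 and the transcription factor gene *Atf5* by 1.25, whereas *Slc1a5* had a difference of -0.97. The wild-type control level of *Gdf15* was at least 3.67-fold above that of Trp53-/-, where it was not well above background. *Nupr1* and *Trib3* were both higher in untreated Trp53-/- NSPCs and fell with PJ34 there.

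**Figure D4:**
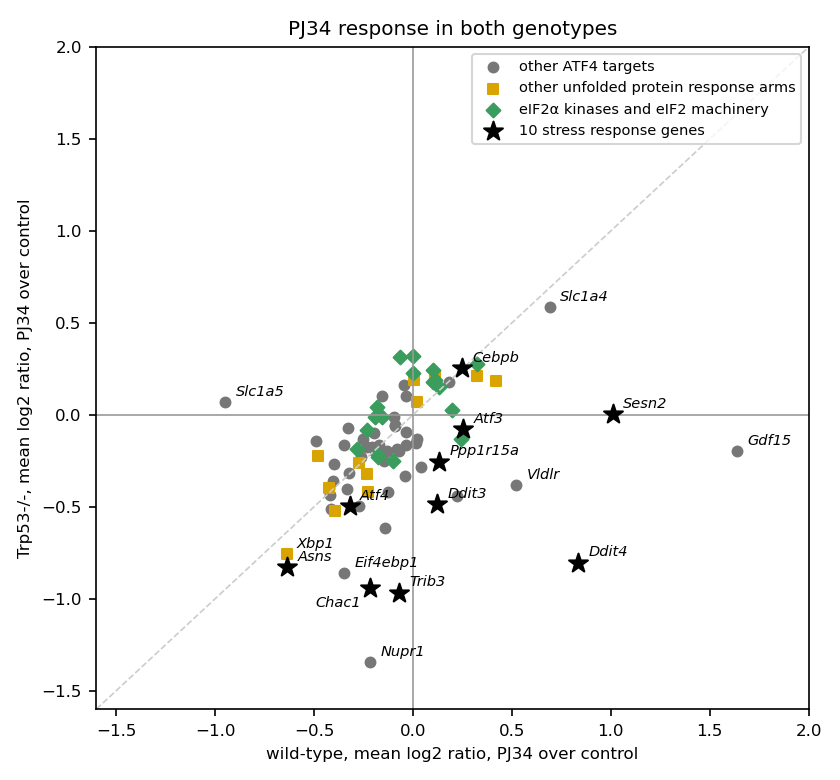
Mean log2 ratio of PJ34 over control in wild-type (x axis) and Trp53-/- (y axis), each over 2 arrays, for the 10 genes (stars) and the genes of 3 related lists. The dashed line marks equal ratios. *Ddit4*, *Sesn2*, *Nupr1* and *Gdf15* (not well above background in Trp53-/-) lie below the line, and *Slc1a5* above it, with -0.95 in wild-type and 0.07 in Trp53-/-.

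Upstream of ATF4, mRNAs of the eIF2α kinases and the eIF2 machinery moved little after loess. Of 18 genes, 2 were higher and 0 lower in wild-type and 3 were higher and 0 lower in Trp53-/-. Of all genes, 13.6% were higher and 11.2% lower in wild-type, and 12.8% higher and 10.5% lower in Trp53-/-. With median centring 16 and 17 of the 18 were higher (59.1% and 67.6% of all genes). *Eif2ak1*, the kinase HRI, rose in both, by 0.32 and 0.28, and *Impact*, an inhibitor of GCN2 activation, rose in wild-type by 0.24 (*q* = 0.0419). *Eif2ak2* (PKR) and *Eif2ak4* (GCN2) rose by 0.32 and 0.31 in Trp53-/-, with -0.0019 and -0.07 in wild-type, and *Eif2ak3* (PERK) had 0.20 and 0.03 with *q* = 0.0895 and 0.425. Of the 18 genes, 0 passed in the difference between genotypes and 0 in the untreated comparison. At an unadjusted *p* below 0.05 limma gave 3 and 0 of them, and 2911 and 4727 of all 20226 genes. Kinase activity and phosphorylation of eIF2α were not measured by these arrays. Of 12 genes of the other arms of the unfolded protein response, 2 were higher and 5 lower in wild-type, against 13.6% and 11.2% of all genes. In Trp53-/- 0 of them were higher and 6 lower, against 12.8% and 10.5%. With median centring 7 and 10 were higher (59.1% and 67.6% of all genes) and 0 lower. *Xbp1*, the transcription factor of the IRE1 arm, fell in both, by 0.64 and 0.76 (0.02 and 0.15 with median centring), and in wild-type the chaperone genes *Pdia4* and *Sdf2l1* fell by 0.48 and 0.42 (0.09 and 0.15 with median centring), while *Dnajb9* and *Atf6* rose by 0.42 and 0.33. In Trp53-/- *Hsp90b1* and *Calr* fell by 0.52 and 0.42, but were at 0.49 and 0.53 with median centring. Without PJ34 *Atf6* was higher in Trp53-/- by 0.80 (*q* = 0.0332).

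The close relatives of the 10 genes did not move as 1 group. Of 13 listed 12 were measured, with 2 higher and 2 lower in wild-type, against 13.6% and 11.2% of all genes. In Trp53-/- 1 was higher and 4 lower, against 12.8% and 10.5%. With median centring 6 and 10 were higher (59.1% and 67.6% of all genes) and 0 lower. *Sesn3*, like *Sesn2* a sestrin, rose in wild-type, with 0.85 and 0.63, against 0.13 and 0.02 in Trp53-/-, a difference of 0.67 (*q* = 0.0342, or 0.633 with median centring). *Sesn1* instead fell in both genotypes, by 0.29 and 0.39, as did *Trib1*, by 0.33 and 0.38, and with median centring both were above 0 in each genotype. *Ddit4l*, the paralog of *Ddit4*, rose in wild-type by 0.87 and in Trp53-/- by 0.55, and its untreated level was lower in Trp53-/-, with a difference of -2.19. The transcription factor genes *Jdp2* and *Cebpd* were higher in untreated Trp53-/- NSPCs, by 0.94 and 0.87, and *Atf5*, which was higher there too, fell with PJ34 in Trp53-/- by 0.29 (0.72 with median centring).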

How the data were processed

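Spots were extracted with Agilent Feature Extraction (version 10.7.3.1), and the deposited intensity values used are the spot means and local background medians of both colours, uncorrected. Their deposited log10 ratios, and the processed signals of the same software, served only as alternatives. A table with 4 columns named by number was not used. Probe positions are on mm9. Symbols came through RefSeq accessions (GRCm38.p6) (26300 of 55681 probes, 47.2%) or, failing that, from the array's gene names.

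In limma 3.58.1 (R 4.3.3) the background was corrected by normexp (offset 50) and ratios were normalized by loess within arrays. Control spots had no weight and were left out, as were 228 to 276 outlier spots per array, and spots of a probe were averaged. Probes with at least 1 channel well above background on both arrays of a genotype were kept (27042, 48.6%), and the brightest probe stood for its gene. The model held a mean per genotype over 4 arrays. Storey's *q* (lambda 0.05 to 0.95) can be below *p*, so both had to be below 0.05. Control levels were compared after limma's Aquantile normalization between arrays. A bound for a dim probe divides the mean of the brighter group by the dim group's mean, after each dim value was raised to its array's lowest reliable signal, and is open to dye bias. RNA of each array was prepared independently. Each array had a slide of its own, so no slide or scan block could be fitted. The number of arrays limits the precision.

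The 10 genes and the lists were chosen with earlier results of these data known. Besides them, the text names *Trp53*, the eIF2α kinases, and, per list and comparison, the 3 largest increases and decreases past the threshold. The fit was also run on simulated data with independent noise and no dye bias, so that run says nothing about dye bias on these arrays. Replicate numbers were not shown to pair arrays of different genotypes (correlation of their deviations -0.18 for ratios and 0.08 for control levels). A marker of the oligodendrocyte lineage is not reported here.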

Additional observations from a re-analysis of the deposited data

Results flagged for a closer look

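The response to PJ34 differed between wild-type and Trp53-/- NSPCs, by limma's test of the difference itself, for 4 of the 10 genes. All had the higher ratio in wild-type, as did 1.27% of all genes. The difference, wild-type minus Trp53-/- on the log2 scale, was 1.64 for *Ddit4*, 1.01 for *Sesn2*, 0.90 for *Trib3* and 0.73 for *Chac1*. *Ddit4* rose in wild-type and fell in Trp53-/-, *Sesn2* rose in wild-type, and *Trib3* and *Chac1* fell in Trp53-/-. With 2 arrays per genotype no array could be tested as standing apart from its group.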

How the results depend on the processing

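Over the alternatives tried, single-gene results kept their direction and their side of the threshold in 540 cases, became weaker in 69, stronger in 16 and turned in 21. Some alternatives could not turn a value, such as Benjamini-Hochberg adjustment, a replicate block or, within a genotype, leaving out an array of the other. Genes that never passed also count as kept, so these numbers do not measure robustness.

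With median centring, values in Trp53-/- turned to 0.15 for *Asns*, 0.19 for *Atf3*, 0.58 for *Atf4*, 0.068 for *Ddit3*, 0.17 for *Ddit4* and 0.58 for *Ppp1r15a*. The median was 0.18, with 4 genes higher and 0 lower, where 67.6% and 0.44% of all genes were. In wild-type the values turned to 0.053 for *Asns*, 0.43 for *Atf4*, 0.25 for *Chac1* and 0.21 for *Trib3*. The median was 0.43, with 6 genes higher and 0 lower, where 59.1% and 0.415% of all genes were, and 2 past 2-fold. The difference turned to -0.10 for *Asns* and -0.14 for *Atf4*, with a median of 0.25. There 1 gene was higher (0.405% of all genes) and 1 was past 2-fold.

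*Sesn2* in Trp53-/-, at 0.0018, was -0.010 with an offset of 16, -0.0048 with scaling between arrays and -0.0019 with log ratios from the scanner software, while the difference of *Cebpb* was 0.0098 with scaling. Using those log ratios, 0 genes were higher and 3 lower in Trp53-/- (4.69% and 2.86% of all genes), with 2 lower past 2-fold. In wild-type 2 were higher (2 past 2-fold) and 1 lower (5.93% and 4.89% of all genes). The difference then had a median of 0.84 with 0 of the 10 genes, and 0 of all genes, past the threshold. With the software's processed signals 0 genes were lower in untreated Trp53-/- (4.35% of all genes). An offset of 16 gave 0 higher (10.9% of all genes) and 2 lower past 2-fold in Trp53-/-. It gave 1 lower in wild-type (9.86%) and 0 higher in the difference (0.183%). Benjamini-Hochberg adjustment gave 2 higher and 1 lower in wild-type (9.5% and 8.17%) and 0 higher in Trp53-/- (8.16%). No filter gave 2 and 0 higher (6.16% and 6.04%). Without background correction 0 genes passed 2-fold in wild-type and 1 in the difference.

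The fit with a replicate block gave 2 higher and 2 lower in wild-type (11.9% and 9.81% of all genes). In Trp53-/- it gave 0 higher and 6 lower (10.9% and 9.43%), and in the difference 5 higher (1.93%). In the untreated comparison it gave 6 higher and 1 lower (7.05% and 8.91%). Crossing the numbers was a choice made after seeing the data. The replicate block then gave 4 and 2 (18.3% and 14.4%), 1 and 7 (17.8% and 14%), 5 (3.55%), and 4 and 1 (3.68% and 4.24%).

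Leaving out each array in turn gave 0 to 1 higher, 4 to 7 lower and 0 to 1 lower past 2-fold in Trp53-/-, and 2 to 3 higher, 1 to 2 lower and 0 to 2 higher past 2-fold in wild-type. The difference had 2 to 5 higher and 1 to 2 past 2-fold. The untreated comparison had 0 to 7 higher, 0 to 2 lower, 0 to 4 higher past 2-fold and 0 to 1 lower past 2-fold. Ranges that crossed 0 were -0.094 to 0.097 for *Sesn2* in Trp53-/-, -0.018 to 0.27 for *Ddit3* in wild-type, -0.065 to 0.054 for the difference of *Cebpb* and -0.64 to 0.31 for its untreated level. A lone array was assumed to vary like the other genotype. Without either wild-type array, far more of all genes passed in the untreated comparison than with all arrays. The highest counts there are therefore not read as a result about the set.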
